A study of Mus musculus with 3 samples.

Results

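Caseins and the major whey proteins were described in mature medullary thymic epithelial cells (mTEC) of 3 mouse genotypes. The genes were taken by symbol, as the 5 casein genes Csn1s1, Csn1s2a, Csn1s2b, Csn2 and Csn3 with Lalba, which encodes alpha-lactalbumin, and Wap, which encodes whey acidic protein. Of these 7 genes, 6 had a probe set annotated with their symbol alone, out of 19937 genes on the array with such a probe set. The single probe set of Lalba is annotated to a second gene as well, so Lalba has no level here.

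Caseins are the phosphoproteins that pack calcium phosphate into micelles in milk, and in the adult they are made in bulk by lactating mammary epithelium under prolactin and STAT5. Mature mTEC transcribe many genes of other organs at low frequency, partly under the control of Aire, and display their products to developing T cells. The casein gene cluster has served as a model locus for this promiscuous expression.

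The series holds 1 library per genotype, all of cells sorted as EpCAM+, CD45-, Ly51low and MHC-II high from C57b/6 thymi of mice 6 weeks old, typically pooled from 3 mice, and hybridised to Affymetrix Mouse Gene 1-ST arrays. WT came from mice with floxed Sirt1 alleles and no Cre (Sirt1fl/fl). Sirt1cKO came from the same alleles with Foxn1-Cre, which acts in thymic epithelium, so that other thymic cells keep Sirt1. AireKO came from Aire–/– mice, for which the labels name no floxed Sirt1 allele, and there was no library with Foxn1-Cre alone. With 1 library a group there is no replicate error, no p-value and no interval. Every difference below compares 2 libraries and not the conditions, and the number of arrays limits the precision.

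The titles and genotype fields name the libraries, while the free-text descriptions of AireKO and Sirt1cKO name each other's genotype. The probe sets of the targeted genes settled neither label, with Aire at a log2 level of 11.97 in WT, 11.55 in AireKO and 11.24 in Sirt1cKO, and Sirt1 at 11.40, 11.42 and 11.27. Whether their probes fall inside the deletions was not tested. AireKO and Sirt1cKO therefore mean the library labelled so by its title. The libraries also differed in Xist, at 12.17, 6.75 and 11.46 in WT, AireKO and Sirt1cKO, in the Y-linked gene Eif2s3y, at 4.23, 9.75 and 8.92, and in H2-Ea, an MHC class II gene that C57b/6 mice do not transcribe, at 5.60, 13.23 and 5.90. Genotype cannot be told apart from these sex-linked and strain-linked differences. All 11 markers of mature mTEC were above background in all 3 libraries. Background in a library is the 95th percentile of 1027 genes for olfactory receptors, few of which are transcribed outside olfactory neurons, and it lay at 6.02 in WT, 6.34 in Sirt1cKO and 6.89 in AireKO. Of all genes on the array, 72.7% were above it in WT, 67.1% in Sirt1cKO and 56.1% in AireKO.

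Promoters of 5 of the 7 genes were matched by symbol in a RefSeq table of GRCm38.p6. Csn1s1 and Csn2 lie next to each other in the casein cluster on chromosome 5 and are transcribed from opposite strands. Their 250 bases before the start site are shown because the 2 genes differed in opposite directions from WT in both knockout libraries. Capitals mark the STAT5 motif TTCNNNGAA, which reads the same on both strands.
Csn1s1, chr5:87665958-87666207, plus strand: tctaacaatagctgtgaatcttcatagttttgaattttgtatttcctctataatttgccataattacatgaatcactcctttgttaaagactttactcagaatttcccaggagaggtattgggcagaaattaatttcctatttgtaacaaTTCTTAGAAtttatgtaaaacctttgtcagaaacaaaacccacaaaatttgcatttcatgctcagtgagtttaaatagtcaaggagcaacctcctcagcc
Csn2, chr5:87699426-87699675, minus strand: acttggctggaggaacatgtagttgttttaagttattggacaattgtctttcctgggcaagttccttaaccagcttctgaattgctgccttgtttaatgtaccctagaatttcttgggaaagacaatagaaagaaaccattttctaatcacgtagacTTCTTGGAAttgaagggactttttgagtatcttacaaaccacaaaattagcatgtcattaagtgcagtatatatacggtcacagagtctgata
The motif began 100 bases before the start in Csn1s1 and 93 bases before it in Csn2. In Csn1s2a the letters stood 21 bases after the annotated start, as atagtgctTTCTTAGAAttacaatg. The windows of Csn1s1, Csn2 and Csn1s2a held the motif, and those of Wap and Lalba did not. Among 32851 promoter windows of the same length, running from 250 bases before to 50 after the start, 8.30% held it. Another run of 10 bases, CCACAAAATT, was shared by Csn1s1 and Csn2 near their starts, at -61 and -55 relative to them, and occurred in 0.0639% of all windows on either strand. Runs as long were shared by other pairs too. Lalba and Wap, on different chromosomes, shared 10 bases found in 0.146% of windows, and Csn1s1 and Csn1s2a shared 11 found in 0.0244%. The octamer ATTTGCAT, searched on both strands, occurred in the Csn1s1 window and in 1.74% of all windows. A CCAAT box on either strand was in the windows of Csn1s1 and Csn2 and in 37.4% of all windows. The TATA box letters TATAAA, in either orientation, were in 0 of the 5 windows and in 13.6% of all windows. These matches describe letters only.

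Csn2, which encodes beta-casein, was far above background in every library. Its intensity was 7754 in WT, 9258 in Sirt1cKO and 10985 in AireKO, or 12.92, 13.18 and 13.42 on the log2 scale. Both knockout libraries were above WT, by 0.26 in Sirt1cKO and 0.50 in AireKO on the log2 scale, a ratio of 1.42 in the latter. Neither difference reached 2-fold. The direction was the same under all scalings of the arrays, where the difference from WT ran from 0.24 to 0.35 in Sirt1cKO and from 0.50 to 0.77 in AireKO.

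Csn1s1, which encodes alpha-s1-casein, had intensities of 273 in WT, 198 in Sirt1cKO and 69.9 in AireKO, or log2 levels of 8.09, 7.63 and 6.13. AireKO was the low library and lay within its background, while the other libraries were above theirs. The measured log2 difference from WT was -1.97 in AireKO and -0.46 in Sirt1cKO. On the unscaled arrays, the AireKO value was then raised to background. By this measure Csn1s1 was at least 2.31-fold lower than in WT and at least 1.68-fold lower than in Sirt1cKO.

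Csn1s2a, which encodes an alpha-s2-casein, stayed above background in all 3 libraries, so its difference was measured on both sides. Its intensities were 794 in WT, 568 in Sirt1cKO and 236 in AireKO, or log2 levels of 9.63, 9.15 and 7.89. AireKO was again the low library, 3.36-fold below WT and 2.40-fold below Sirt1cKO, with log2 differences of -1.75 and -1.27. Sirt1cKO differed from WT by -0.48. Across scalings the AireKO difference from WT ran from -1.75 to -1.48.

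Csn1s2b encodes the second alpha-s2-casein and lies next to Csn1s2a. Its log2 levels were 5.15 in WT, 5.10 in Sirt1cKO and 6.13 in AireKO, within background in all 3. No difference is read from these values, because background itself was higher in AireKO.

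Csn3 encodes kappa-casein, which coats the micelle surface and keeps micelles apart. It stood just above background in each library, at log2 6.29 in WT, 6.94 in Sirt1cKO and 7.07 in AireKO, or intensities of 78.4, 123 and 135. The differences from WT were 0.65 and 0.78. They stood above background by 0.28, 0.60 and 0.19, so against its own library's background AireKO was the lowest of the 3. With the 99th percentile of the olfactory receptor genes as background, at 6.92, 7.08 and 7.60, Csn3 was within it in all 3 libraries. The AireKO difference passed 2-fold only after median centring of the arrays, at 1.05.

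Wap, on chromosome 11, encodes a whey protein with the four-disulfide core fold of protease inhibitors. Its log2 levels were 7.58 in WT, 7.44 in Sirt1cKO and 6.60 in AireKO, or intensities of 192, 173 and 97.1. The AireKO value was within background. Its measured difference from WT of -0.98 fell just short of 2-fold, and -1.05 after quantile normalization just passed it. With the AireKO value raised to background, Wap was at least 1.62-fold lower than in WT. Sirt1cKO differed from WT by -0.15.

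**Figure D1:**
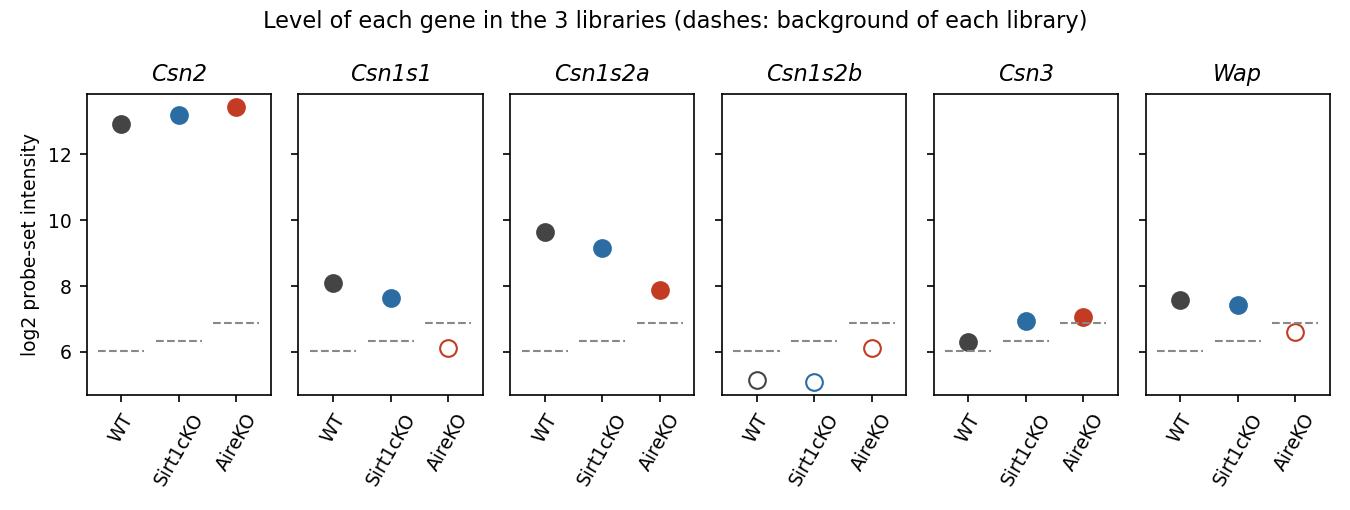
Log2 probe-set intensity of 6 genes in WT, Sirt1cKO and AireKO, 1 point per library, with dashes at the background of each library and open points for values within it. Csn2 is highest in AireKO, while Csn1s1, Csn1s2a and Wap are lowest there, with Csn1s1 and Wap within background. Heights of different genes come from different probes and are not comparable.

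The genes thus fell into groups by the order of the libraries. Csn1s1, Csn1s2a and Wap, or 3 of 6 genes, stood in the order WT above Sirt1cKO above AireKO, an order shown by 27.3% of all genes on the array and 38.2% of those with a highest log2 level of at least 6.81, the filter on low values. Csn2 and Csn3, or 2 of 6, stood in the reverse order, shown by 29.8% of all genes and 18.1% of those that passed. Csn3 passed the filter through the knockout libraries alone, and its order was also that of the backgrounds. Above the background of its own library it stood at 0.28 in WT, 0.60 in Sirt1cKO and 0.19 in AireKO, which is not that order. Both orders are common on the array, so membership in either is not particular to milk genes.

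Against WT, 2 of 6 genes were lower by 2-fold or more in AireKO, Csn1s1 and Csn1s2a, and 0 were higher. Over all genes on the array 5.51% were lower and 3.2% higher by this rule, and 8.46% and 2.68% of the 12556 genes that passed the filter. Of the milk genes, 5 passed it, all but Csn1s2b. With dim values raised to background the counts stayed at 2 lower and 0 higher, against 4.62% and 1.53% of all genes. The median difference of the 6 genes was -0.24, and it was 0.02 over all genes on the array. Over the 5 that passed the filter, which leaves out Csn1s2b, it was -0.98, and it was -0.19 over all genes that passed. With so few genes the median turns on that 1 gene and is given as a description.

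In Sirt1cKO against WT, 0 of 6 genes were lower and 0 were higher by 2-fold or more, against 1.13% and 0.582% of all genes and 1.68% and 0.804% of those that passed the filter. With dim values raised these backgrounds were 0.948% and 0.466%. The differences ran from -0.48 for Csn1s2a to 0.65 for Csn3, with a median of -0.10. The median over all genes was 0.00.

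Between the knockouts, AireKO was lower than Sirt1cKO by 2-fold or more in Csn1s1 and Csn1s2a, with 1.74% of all genes and 2.72% of those that passed the filter lower by this rule. Csn1s2b was higher by 1.04, with 1% of all genes and 1.04% of those that passed the filter higher, but it lay within background in both libraries. With dim values raised to background, Csn1s2a alone remained past 2-fold, in a comparison where 1.39% of all genes were lower and 0.557% higher. Csn2 differed by 0.25 and Csn3 by 0.13. Since WT is shared by both comparisons with it, the 2 sets of differences are not independent of each other.

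Differences also varied with brightness on these arrays. Among genes as bright as Csn2, in the brightest of 10 bins, the median AireKO difference from WT was -0.23, and Csn2 stood at 0.50. Among genes as bright as Csn1s2a the median was -0.30, against -1.75 for Csn1s2a. In the bin of Csn1s1 and Wap it was -0.16. In the bin of Csn1s2b it was 0.32, and the 0.99 of that gene, within background in both libraries, is not read against it.

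A comparison of 2 genes within the same libraries does not depend on an overall shift of an array. The AireKO minus WT difference of Csn2 exceeded that of Csn1s1 by 2.47 and that of Csn1s2a by 2.25 on the log2 scale, and the excess over Csn1s1 was 1.71 with dim values raised to background. In Sirt1cKO the excess was 0.72 over Csn1s1 and 0.74 over Csn1s2a. Csn2 and its neighbours in the cluster therefore changed unequally between these libraries. In sorted bulk cells, fewer cells with a transcript and less transcript per cell cannot be told apart.

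**Figure D2:**
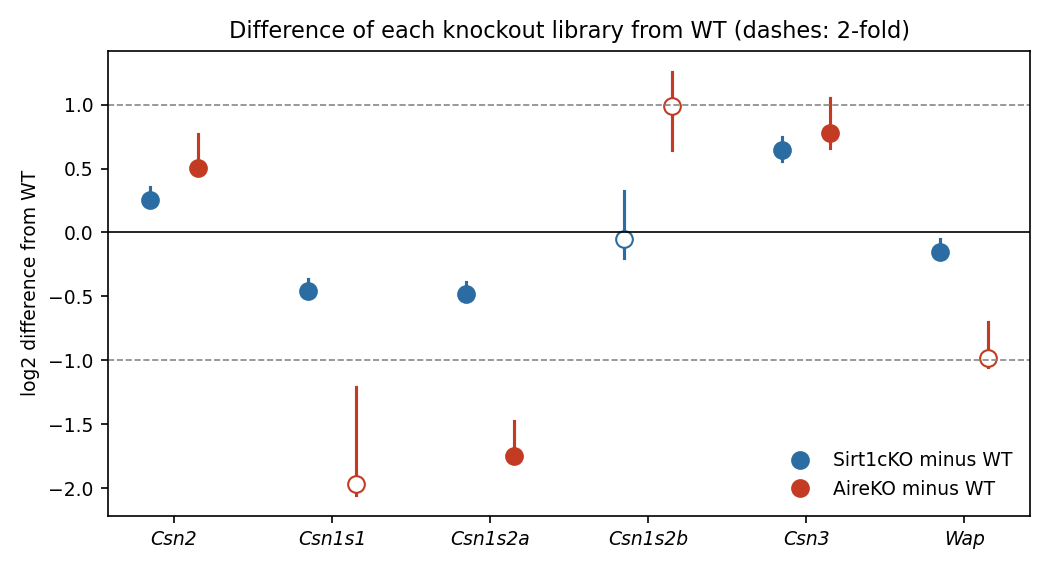
Log2 difference of each knockout library from WT for 6 genes, with the lowest and highest value over 6 ways of scaling or flooring the values as a line and 2-fold marked by dashes. Open points are values within background in the knockout library. Csn1s1 and Csn1s2a lie below -1 in AireKO under all of these settings, and Csn2 and Csn3 lie above 0 in both libraries. Each gene has 1 probe set, so the mean of probe sets, among these ways, repeats the unscaled value.

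The casein cluster was also read with its neighbours in chromosomal order. There were 20 neighbours with a probe set, 4 of them between the casein genes and 8 on each side, of which 3 passed the filter. The sulfotransferase gene Sult1d1, which lies before Csn1s1, had levels of 7.14, 6.90 and 7.15 in WT, Sirt1cKO and AireKO, so its libraries differed little. BC037156, the gene before Csn3, stood at 7.05, 7.49 and 8.07, highest in AireKO by 1.02 over WT. Amtn, which encodes the enamel matrix protein amelotin and lies beyond Csn3, stood at 8.88, 8.05 and 6.57, and was at least 3.99-fold lower in AireKO than in WT.

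Over all 20 neighbours, 2 were lower and 3 higher by 2-fold or more in AireKO, and 0 were lower or higher in Sirt1cKO. Over all genes the AireKO shares were 5.51% lower and 3.2% higher. With dim values raised to background, 1 was lower and 1 higher in AireKO, Amtn and BC037156, against 4.62% and 1.53% of all genes. The others apart from Sult1e1, among them Odam, Smr2 and Enam, were within background in all 3 libraries. Csn2, highest in AireKO, thus lay between Csn1s1 and Csn1s2a, which were low there, as was Amtn beyond Csn3. BC037156 was highest in AireKO too, but background rose in the same order, from 6.02 in WT to 6.34 in Sirt1cKO and 6.89 in AireKO. Its difference is therefore not read as a change opposite to theirs.

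**Figure D3:**
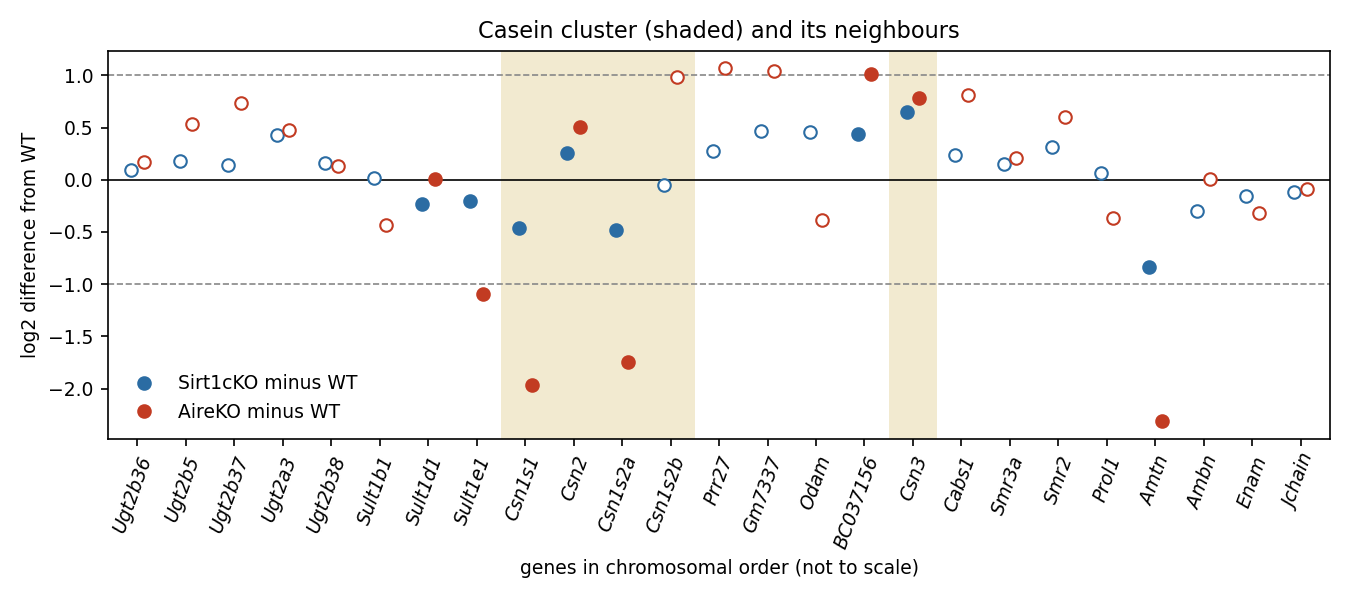
Log2 difference from WT of the 5 casein genes (shaded) and 20 neighbours in chromosomal order, not to scale, for AireKO and Sirt1cKO. Open points are genes within background in both libraries of the comparison. Csn1s1, Csn1s2a and Amtn lie below -1 in AireKO, with Csn2 above 0 between the former.

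Other proteins of milk and of the milk fat globule were read from a list of 18 genes, 16 of them on the array. In AireKO 4 were lower and 1 higher by 2-fold or more, and in Sirt1cKO 2 were lower and 0 higher. Over all genes 5.51% were lower and 3.2% higher in AireKO, and 1.13% and 0.582% in Sirt1cKO. With dim values raised to background, 3 were lower in AireKO and 1 in Sirt1cKO, since Cel then stayed under 2-fold. Their median difference was -0.61 in AireKO and -0.19 in Sirt1cKO. Pigr, the receptor that carries IgA into milk and other secretions, stood at 10.65 in WT, 10.49 in Sirt1cKO and 8.53 in AireKO. Mfge8, a milk fat globule protein, stood at 10.17, 9.17 and 8.45, and both knockout libraries were below WT by 2-fold or more. Cel, the bile salt-stimulated lipase, was above background in WT alone, at 7.23, and was at least 1.85-fold lower in Sirt1cKO and at least 1.27-fold lower in AireKO. The single higher gene was Glycam1, a mucin-like whey protein named after its values were seen, at 6.27, 6.58 and 7.43. Glycam1 passed the filter on low values through AireKO alone, where background was also highest. With the 99th percentile of the olfactory receptor genes as background, at 6.92, 7.08 and 7.60, it was within background in all 3 libraries.

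Ltf, which encodes lactoferrin, stood at 10.15 in WT, 9.37 in Sirt1cKO and 6.38, within background, in AireKO, and was at least 9.58-fold lower in AireKO than in WT. Ltf is also a neutrophil granule gene and is itself one of the 8 neutrophil markers used. Of the neutrophil markers, 8 of 8 were above background in WT, 7 in Sirt1cKO and 3 in AireKO, against 72.7%, 67.1% and 56.1% of all genes. Their summed intensity was 5626, 2876 and 995.3. Of these 8 markers, 5 were lower by 2-fold or more in AireKO and 3 in Sirt1cKO, against 5.51% and 1.13% of all genes. Ly6g was at least 16.9-fold lower in AireKO, and S100a8 had log2 differences of -2.91 in AireKO and -1.82 in Sirt1cKO. The markers did not all move alike, with 7 of 8 below WT in AireKO and 6 in Sirt1cKO. Elane, within background in AireKO, differed by 0.40 there, Camp by -0.41 in AireKO and S100a9 by 0.19 in Sirt1cKO. These 3 were named after their values were seen. The sort gate was CD45-, and the part of neutrophil RNA in these values was not tested.

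Genes that modify or accompany milk proteins were read next. Of 11 genes for lactose synthesis, casein phosphorylation and calcium or phosphate transport, 3 were lower and 0 higher in AireKO, 1 was lower in Sirt1cKO, and the medians were -0.52 and -0.26. Among all genes, 5.51% were lower and 3.2% higher in AireKO, and 1.13% were lower in Sirt1cKO. Fam20c, the kinase that phosphorylates caseins, stood at 8.68 in WT, 7.59 in Sirt1cKO and 7.37 in AireKO, with differences of -1.08 and -1.31. B4galt1, the galactosyltransferase that makes lactose together with alpha-lactalbumin, stood at 9.09, 8.35 and 7.96. The phosphate transporter gene Slc34a2 stood at 10.50, 10.40 and 9.20, and the glucose transporter gene Slc2a1 at 10.61, 10.15 and 9.74.

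Lactogenic signalling genes were on the array in 26 of 27 cases. In AireKO 4 were lower and 1 higher by 2-fold or more, and in Sirt1cKO 0 were either, with medians of -0.13 and -0.11. Over all genes the shares were 5.51% lower and 3.2% higher in AireKO, and 1.13% and 0.582% in Sirt1cKO. Stat5a, the transcription factor that prolactin activates at casein promoters, stood at 10.50 in WT, 10.14 in Sirt1cKO and 10.14 in AireKO, and its paralogue Stat5b at 9.02, 8.51 and 9.14. Both were named after their values were seen, and neither differed from WT by 2-fold. The lower genes were Cebpb, Socs2, Cish and Socs1, the last named after its values were seen. Socs2 and Cish, feedback inhibitors that are targets of STAT5, had AireKO differences of -1.76 and -1.12 and Sirt1cKO differences of -0.42 and -0.63. Cebpb, a transcription factor of mammary differentiation, stood at 8.03, 7.38 and 6.56, the last within background, and was at least 2.20-fold lower in AireKO. Nrg1, a ligand of the ERBB receptors, was the higher gene, at 9.84, 10.05 and 11.81.

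Families related to the whey proteins were on the array in full. Of 22 genes of the WAP four-disulfide core family, 9 passed the filter on low values. Of the 22, 1 was lower by 2-fold or more in AireKO and 0 in Sirt1cKO, against 5.51% and 1.13% of all genes. The lower gene was Wfdc2, at 10.25 in WT, 9.62 in Sirt1cKO and 8.80 in AireKO. Wfdc18, a small secreted family member of mammary gland, stood at 12.86, 12.54 and 12.22, and the protease inhibitor gene Slpi at 7.85, 7.56 and 7.27. Wfdc11 stood at 7.49, 7.64 and 8.06. The median over all 22 was 0.15 in AireKO and 0.08 in Sirt1cKO, and over the 9 that passed the filter it was -0.18 and -0.22, of the opposite sign.

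Alpha-lactalbumin belongs to the c-type lysozymes, of which 7 were on the array and 3 passed the filter. In AireKO 2 were lower by 2-fold or more, Lyz1 and Lyz2, the antibacterial lysozymes of gut and of myeloid cells, and in Sirt1cKO 0 were. The shares of all genes that were lower were 5.51% in AireKO and 1.13% in Sirt1cKO. Lyz1 stood at 12.70 in WT, 11.79 in Sirt1cKO and 10.98 in AireKO, and Lyz2 at 12.06, 11.26 and 10.76. The pair is near-identical in sequence, so signals of Lyz1 and Lyz2 cannot be told apart with certainty. Spaca3, a sperm lysozyme gene, stood at 6.56, 6.73 and 7.24. Medians over all 7 were 0.27 in AireKO and 0.12 in Sirt1cKO.

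**Figure D4:**
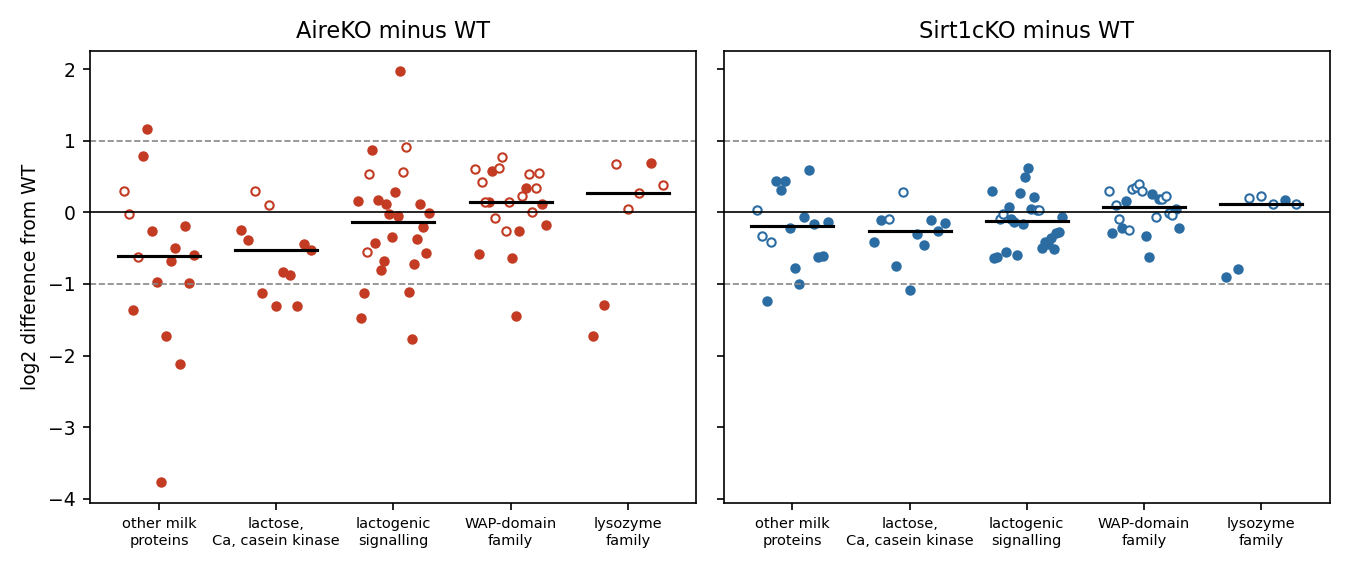
Log2 difference from WT of genes in 5 lists related to milk, in AireKO (left) and Sirt1cKO (right), 1 point per gene, with the list median as a black bar and 2-fold as dashes. Open points did not pass the filter on low values. The lowest point is Ltf in AireKO at -3.77, and the highest is Nrg1 in AireKO at 1.97.

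Markers of mammary and thymic cell types were set beside these values. Against WT, 5.51% of all genes were lower by 2-fold or more in AireKO and 1.13% in Sirt1cKO, and 3.2% and 0.582% were higher. Among genes that passed the filter, 8.46% and 1.68% were lower. Of 7 luminal mammary markers, which other simple epithelia share, 1 was lower by 2-fold or more in AireKO, Krt19 at -1.82, and 0 in Sirt1cKO. Of 7 basal and myoepithelial markers, 3 were lower in AireKO, Krt5, Acta2 and Cnn1, and 2 in Sirt1cKO, Acta2 and Cnn1. These markers did not all move alike, with 4 of 7 below WT in AireKO and 5 in Sirt1cKO. Trp63 was above WT in both, by 0.30 in AireKO and 0.58 in Sirt1cKO. Elf5, the alveolar transcription factor of mammary gland, stood at 6.65 in WT, 6.55 in Sirt1cKO and 6.09, within background, in AireKO, and is named after its values were seen. Mature mTEC markers had 3 of 11 lower in AireKO, Cldn3, Cldn4 and Ccl22, and 0 in Sirt1cKO. Of the 11, 10 were below WT in each knockout library, and Cd80 was above it, by 0.76 in AireKO and 0.36 in Sirt1cKO. Summed intensities of the 11 were 49944 in WT, 38703 in Sirt1cKO and 34872 in AireKO. The brightest terms in WT were H2-Aa and H2-Ab1, at log2 13.70 and 13.58. Cd80 and H2-Aa are named after their values were seen. Cortical markers had 3 of 6 lower in AireKO, Prss16, Dll4 and Ctsl, and 0 in Sirt1cKO. Thymocyte markers, with 7 on the array, B cell, dendritic cell and macrophage markers, with 6, and fibroblast, endothelial and adipocyte markers, with 8, had 0 lower and 0 higher in either library. The part of other cells in the casein values was not tested.

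Antigens widely described as Aire-dependent had 4 of 9 genes lower by 2-fold or more in AireKO and 1 in Sirt1cKO, with medians of -0.85 and -0.52, against 5.51% and 1.13% of all genes lower. Over the 7 that passed the filter the medians were -2.48 and -0.52. The lower genes in AireKO were the mucosal peptide gene Tff3, at 11.29 in WT, 10.49 in Sirt1cKO and 8.64 in AireKO, the pancreatic polypeptide gene Ppy, at 10.64, 10.12 and 8.16, Bpifb1, at 9.17, 9.32 and 5.87, and S100a8, at 10.01, 8.19 and 7.10. S100a8 is a neutrophil marker too. Fabp9, of the same list and named after its values were seen, was highest in AireKO, at 11.34 in WT, 11.45 in Sirt1cKO and 12.30 in AireKO.

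The genes most like Csn1s2a, Csn2 and Csn3, which were above background in all 3 libraries, were sought among 11886 genes that passed the filter and were not predicted genes, small RNAs, receptor genes of smell or segment genes, by the distance between their 2 differences from WT on the log2 scale. Over 3 libraries such likeness is a description. Csn1s1 and Wap were within background in AireKO, so no nearest genes are given for them. Nearest to Csn1s2a were Mill1, Furin and Socs2, at 0.046, 0.053 and 0.067. Erbin, Bmp4 and Zic5 were nearest to Csn2, within 0.0093, and Mpc1, Mapkapk5 and Gli3 to Csn3, within 0.020.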

How the data were processed

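The authors deposited linear probe-set intensities for 34760 probe sets in 3 libraries. RMA is the method named, per the submitters' processing notes, with no version or annotation in the sources used here. Here log2 was taken of the intensities without further normalization. The annotation gave 1 symbol to 21640 probe sets, several to 1321 and none listed for 11799. Each gene kept its brightest probe set by mean. Neighbours were taken by their order in RefSeq genes of GRCm38.p6, matched by Entrez identifier for 99.6% of single-symbol probe sets. A difference counted from 2-fold. In a fold given as "at least", a value within background was replaced by the background, on unscaled arrays.

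The milk genes and gene lists were chosen with earlier results of these data known. Genes named were the milk genes, Aire and Sirt1, up to 4 genes per list with the largest difference among those that passed the filter (highest log2 level of 6.81, the median of all values), neighbours that passed it, and the 3 genes nearest to milk genes above background in all libraries, a limit to those genes set after their values were seen. Xist, Eif2s3y, H2-Ea and neighbours below the filter were named after their values were seen. Alternatives were quantile, loess (span 0.3) and median scaling, the mean of probe sets, 1.5-fold and 3-fold thresholds, raised dim values, other background levels and exchanged labels. The code was tested on simulated data, in Python 3.11.15 with pandas 2.3.3, numpy 2.4.6, statsmodels 0.14.6 and matplotlib 3.10.9.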

Additional observations from a re-analysis of the deposited data

How the results depend on the processing

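Csn1s1 and Csn1s2a were lower by 2-fold or more in AireKO than in WT under quantile, loess and median scaling and with raised dim values. Dim values were raised on the unscaled arrays only, so scaling and raising were not combined. Both also passed the 3-fold threshold with values as measured. The AireKO value of Csn1s1 was within background, and with it raised Csn1s1 was at least 2.31-fold lower, which does not reach 3-fold. Each milk gene has 1 probe set, so the mean of probe sets could not change its values. The 1.5-fold threshold could not undo a 2-fold call. With the labels of AireKO and Sirt1cKO exchanged, the count of lower genes was 0 in AireKO and 2 in Sirt1cKO, and AireKO against Sirt1cKO had 1 lower and 2 higher, with Csn1s1 at 1.51, Csn1s2a at 1.27 and Csn1s2b at -1.04. Higher genes in AireKO against WT numbered 2 after median centring (Csn1s2b and Csn3) and 2 at 1.5-fold, and in Sirt1cKO 1 at 1.5-fold. Between the knockouts, the lower count was 0 at 3-fold and 1 with raised dim values. The higher count there was 0 under quantile and loess scaling, at 3-fold, with raised dim values and, chosen after seeing the data, without genes within background in both libraries. Milk genes above background numbered 5 of 6 in WT, 3 in AireKO and 5 in Sirt1cKO, against 72.7%, 56.1% and 67.1% of all genes. They numbered 4, 2 and 4 with the olfactory 99th percentile as background, where Csn3 was lost in all 3. With the median of all values they numbered 4, 3 and 5, and Csn3 was lost in WT. The measured lysozyme genes had a median of -1.30 in AireKO, and all 7 had 0.27. Over genes that passed the filter, the median AireKO difference was -0.19, and 0.08 after median centring; those lower and higher numbered 1062 and 336, 838 and 416 after quantile, 759 and 436 after loess and 548 and 706 after median scaling. With 1 library a group, the spread between mice is unknown, and levels within background have no order. No paired analysis was possible because each group has 1 library.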
